A study of Rattus norvegicus with 4 samples.

Results

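The endoplasmic reticulum genes examined here encode the chaperones, folding enzymes and import machinery of the secretory pathway. They comprised 40 rat genes with known roles in these steps, taken from the array by gene symbol, and 39 of them were measured, of 10411 genes with a probe set of their own. Where a gene had several probe sets, the one with the highest mean over the 4 arrays stood for it and the others are given beside it. All 39 exceeded the filter that left out the dimmest 40% of probe sets. No probe set carried the symbol of Atf6, a membrane-bound stress sensor, which was not analysed here. The arrays were Affymetrix rat expression arrays, whose probe sets are groups of short probes for 1 transcript, and the deposited values are signal intensities. Cells were neonatal rat ventricular myocytes, a primary culture of newborn heart muscle cells. In the fibronectin group the dishes carried a coat of fibronectin, a matrix glycoprotein, and in the control group they were uncoated. Both groups had 10% serum for the first 24 h and no serum for the following 48 h, and each group had 2 arrays. Genotype, animal numbers and pooling are not stated in the labels, nor is it said whether the arrays of a group stem from separate cultures. The p-values therefore measure only the spread between these arrays, which may be technical.

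Proteins bound for the cell surface or the matrix enter the endoplasmic reticulum through the Sec61 channel while they are being translated. Inside, they receive sugar chains, are bound by chaperones such as BiP and calreticulin, and gain disulfide bonds from protein disulfide isomerases. When unfolded proteins accumulate, the sensors IRE1, PERK and ATF6 start the unfolded protein response, in which the factors XBP1, ATF4 and ATF6 raise transcription of chaperone, degradation and stress genes. In the heart this pathway serves both the myocytes, which secrete natriuretic peptides, and the fibroblasts, which secrete collagen.

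The 39 genes had no common direction. Relative to uncoated dishes, 17 had a positive and 22 a negative difference, with a median of -0.06 on the log2 scale, against a median of 0.02 over the 7101 genes tested. The fibronectin arrays lay wholly above the controls for 11 members and wholly below them for another 11. Over all genes tested, 20.6% lay higher and 17.2% lower in that way, 37.8% in all, compared with 56.4% of the members. In limma's test with Benjamini-Hochberg adjustment 0 of the 39 passed the threshold of 0.05, their adjusted p ranging from 0.718 to 0.993. The same test called 0 of 9519 probe sets, which is 0%. An unadjusted p under 0.05 was reached by Sec61b and Sec61g, higher on fibronectin, and by Pdia3, P4hb and Serpinh1, lower on fibronectin, that is, 2 and 3 of 39. Over all genes 3.03% reached it higher and 2.65% lower, 5.68% in all. The members' median SD within a group was 0.27 on fibronectin and 0.23 on uncoated dishes, and that of all genes tested was 0.39 on fibronectin and 0.25 on uncoated dishes. In mean signal the median member stood at percentile 91.6 of the genes tested, and the members were chosen with earlier results of these data known. The part of the smaller spread, of the signal level or of this choice in the members' larger share without overlap was not tested.

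**Figure D1:**
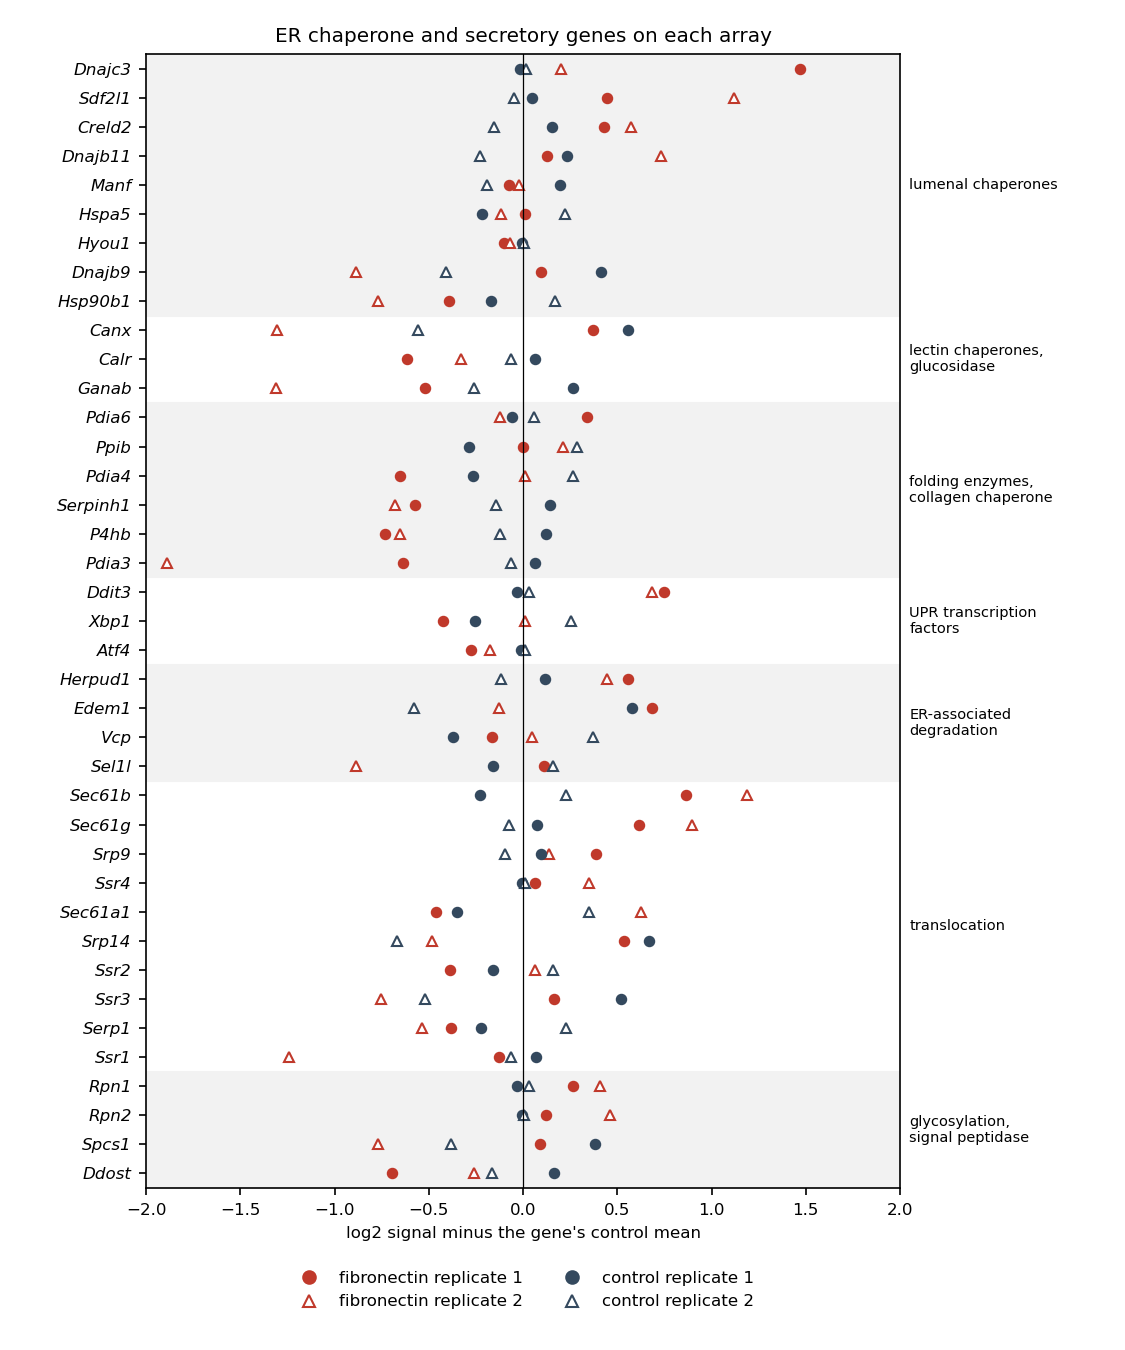
Log2 signal of each member on each of the 4 arrays, as the difference from the gene's control mean (x axis), with genes grouped by role (y axis). Red symbols are fibronectin arrays and dark symbols control arrays, circles replicate 1 and open triangles replicate 2. Sec61b, Sec61g and Ddit3 have both red symbols to the right of both dark ones, and Pdia3, P4hb and Serpinh1 have both to the left.

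Part of this picture depended on how the arrays were scaled. The values above are from quantile-normalized arrays. On the deposited scale 21 members had a positive and 18 a negative difference, 53.8% positive, compared with 43.6% after quantile normalization. Of all 7101 genes tested, 4046 were positive on the deposited scale and 3652, or 51.4%, after quantile normalization. The members lower without overlap then numbered 4, and 6 when each array was shifted to the same median, while those higher without overlap numbered 10 and 12. The share of all genes without overlap was not counted on either of these scalings by itself, so these counts have no background. On all 3 scalings 8 members stayed higher without overlap, namely Sec61b, Sec61g, Ssr4, Rpn1, Rpn2, Sdf2l1, Creld2 and Ddit3, and 3 stayed lower, namely Pdia3, P4hb and Calr. The first are 20.5% and the second 7.69% of the members, where 15% and 8.9% of all genes tested stayed apart in these directions. In either direction the shares were 28.2% of members and 23.9% of all genes. This count was chosen after the data were seen. At an unadjusted p under 0.05 the lower members numbered 3 after quantile normalization and 0 on either other scaling. Of all 9519 probe sets, 363 were lower in that way after quantile normalization, 194 on the deposited scale and 267 with the median shift.

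**Figure D2:**
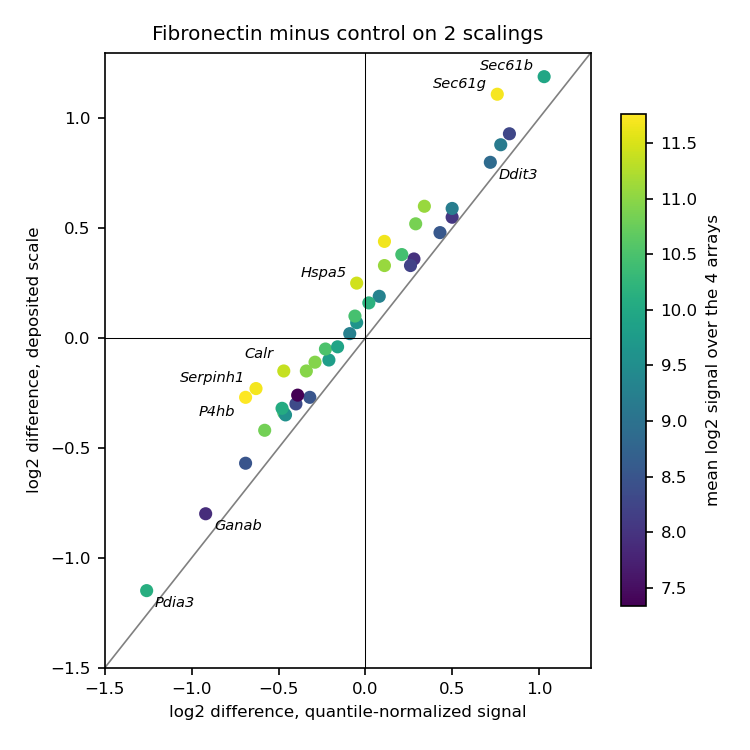
Log2 difference, fibronectin minus control, of each member after quantile normalization (x axis) and on the deposited scale (y axis), coloured by mean log2 signal, with the diagonal marking equal values. All 39 points lie above the diagonal, and P4hb and Serpinh1 lie at -0.69 and -0.63 on the x axis but at -0.27 and -0.23 on the y axis.

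The arrays themselves differed. Over all tested probe sets fibronectin replicate 2 correlated least with the others, at r = 0.792 with its own replicate and 0.775 and 0.794 with the controls, where the controls correlated at 0.910; across the members these 4 correlations were 0.88, 0.81, 0.883 and 0.925. These are correlations across probe sets or genes, which are not independent replicates. Signal ratios of the 3′ to the 5′ control probe sets, a measure of RNA integrity, were 13 and 6.29 for beta-actin on fibronectin against 1.46 and 1.4 on the controls. For Gapdh they were 6.02 and 3.52 on fibronectin, against 1.64 and 1.15 on the controls, whereas for hexokinase they were 3.11 and 7 on fibronectin and 3.77 and 4.12 on the controls, with overlap. Their part in the results below was not tested. The labelled cell type was present on every array, with Tnnt2, cardiac troponin T, at 13.45 and 13.05 on fibronectin and 13.67 and 13.09 on the controls (log2 signal). Fibroblast RNA was present too, Col1a1 reading 12.88 and 13.19 on fibronectin and 13.65 and 13.98 on the controls. In such bulk samples fewer cells of a type and less RNA per cell cannot be told apart.

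Among the genes of protein import, the small subunits of the translocation channel had the highest differences. Sec61b, the beta subunit of the Sec61 channel, had log2 signals of 10.31 and 10.63 on fibronectin replicates 1 and 2, against 9.21 and 9.67 on control replicates 1 and 2. The lowest fibronectin array thus lay above the highest control. It averaged 10.47 ± 0.23 (SD, n = 2) on fibronectin and 9.44 ± 0.32 (SD, n = 2) on the controls. The signal was 2.04-fold higher, with a log2 difference of 1.03 (SE 0.31) and limma's Benjamini-Hochberg adjusted p = 0.718. Sec61g, the gamma subunit, read 11.94 and 12.22 on fibronectin and 11.40 and 11.25 on uncoated dishes, again with no overlap. It was 1.69-fold higher, by 0.76 (SE 0.26) on the log2 scale, with limma's adjusted p = 0.718. The pore-forming alpha subunit, Sec61a1, gave no such difference in its brighter probe set, with 8.80 and 9.88 on fibronectin and 8.91 and 9.61 on the controls, where the replicate 2 array of each group was the higher one. The difference was 0.08 (SE 0.44), and the dimmer Sec61a1 probe set lay lower, with a difference of -0.86 (SE 0.45). Of the channel's subunits, Sec61a1 was thus the one whose groups overlapped in the brightest probe set.

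The other import genes differed less. The signal sequence receptors Ssr1 to Ssr4 form the translocon-associated complex beside the channel. Ssr1 read 8.72 and 7.61 on fibronectin and 8.92 and 8.78 on the controls, a difference of -0.69 (SE 0.43) that came to -0.13 without fibronectin replicate 2. Ssr4 was higher by 0.21 (SE 0.27) without overlap, or by 0.38 on the deposited scale. Ssr2 differed by -0.16 (SE 0.31) and Ssr3 by -0.29 (SE 0.44), both with overlap. Serp1, a small protein that stabilizes membrane proteins at the channel, was lower without overlap at 9.41 and 9.25 on fibronectin and 9.56 and 10.01 on the controls, a difference of -0.46 (SE 0.31), with -0.40 (SE 0.41) in its dimmer probe set, where the groups overlapped. Srp9 and Srp14 encode the pair that binds the Alu domain of the signal recognition particle RNA. Srp9 was higher by 0.26 (SE 0.35) without overlap, and Srp14 differed by 0.02 (SE 0.51), with replicate 1 above replicate 2 by more than 1 log2 unit in both groups. In all, 6 of 10 import genes had a positive difference, their median being 0.05.

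Genes of the oligosaccharyltransferase, the membrane complex that attaches N-linked sugar chains to incoming proteins, divided in direction. Rpn1, encoding the ribophorin I subunit, read 11.18 and 11.32 on fibronectin and 10.88 and 10.94 on the controls, higher by 0.34 (SE 0.26) without overlap. Rpn2, ribophorin II, read 10.83 and 11.18 on fibronectin and 10.71 and 10.72 on the controls, higher by 0.29 (SE 0.27). On the deposited scale these differences were larger, 0.60 for Rpn1 and 0.52 for Rpn2. Ddost, a further subunit of the same complex, lay lower without overlap, with 9.59 and 10.02 on fibronectin and 10.45 and 10.11 on the controls, a difference of -0.48 (SE 0.31). Spcs1, a subunit of the signal peptidase that removes signal sequences, differed by -0.34 (SE 0.39) with overlap. None of the 4 passed limma's test, their lowest adjusted p being 0.772.

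Many ER chaperone genes are known to carry a common promoter element, the ER stress element, to which NF-Y and ATF6 or XBP1 bind. The RefSeq promoter windows of the rat assembly GRCr8, each from 250 bases before to 50 bases after the transcript start, were searched on both strands for CCAAT and CCACG with 9 bases of any kind between them, which is the ER stress element. They were also searched for ATTGG and CCACG with 1 base between them, which is the ER stress element II, for CCACG alone, a part of both, and for the unfolded protein response element TGACGTGG and the amino acid response core TTGCATCA. A window was found for 35 of the 39 members. The full ER stress element occurred in 7 of these 35, or 20% of them, and in 21 of all 27457 windows, or 0.0765%. The second element occurred in 3 members, or 8.57%, and in 15 of all windows, or 0.0546%. CCACG alone occurred in 29 members, or 82.9%, and in 32.5% of all windows. TGACGTGG occurred in Hyou1, where it overlaps the second element, and Vcp, or 5.71% of members, against 0.637% of all windows. TTGCATCA occurred in Herpud1, or 2.86% of members, against 0.743% of all windows. No member held both full elements. A match describes the letters of the window and is not evidence of binding.

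The sequences below are those of all 7 members with the first element and of Herpud1 with the second, shown because the same letters recur in genes whose differences have opposite signs. Hyou1, with the second element in 2 places, and Dnajb11 also carry it and are not printed. Each is written 5′ to 3′ on the gene's own strand from GRCr8. For Hspa5 the 250 bases before the start are given, with each CCAAT box and the CCACG box, on either strand, in capitals. For the others the full element is in capitals, and it reads CGTGG first where it lies on the other strand.
Hspa5, chr3:38452766-38453015, plus strand: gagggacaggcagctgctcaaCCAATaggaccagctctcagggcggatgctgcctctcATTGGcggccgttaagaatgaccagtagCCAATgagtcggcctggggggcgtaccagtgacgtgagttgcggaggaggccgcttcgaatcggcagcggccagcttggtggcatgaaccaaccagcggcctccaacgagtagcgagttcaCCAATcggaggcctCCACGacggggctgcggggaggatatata
Xbp1, chr14:84604538-84604596, plus strand: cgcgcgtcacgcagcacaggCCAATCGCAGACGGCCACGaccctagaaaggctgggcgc
Dnajc3, chr15:102432514-102432572, plus strand: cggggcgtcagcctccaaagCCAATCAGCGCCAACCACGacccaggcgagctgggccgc
Creld2, chr7:121789219-121789277, plus strand: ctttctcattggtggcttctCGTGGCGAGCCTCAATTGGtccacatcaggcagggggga
Hsp90b1, chr7:23012431-23012489, minus strand: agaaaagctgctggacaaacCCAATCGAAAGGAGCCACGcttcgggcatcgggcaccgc
Hsp90b1, chr7:23012327-23012385, minus strand: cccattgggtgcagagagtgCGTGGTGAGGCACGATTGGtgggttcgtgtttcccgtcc
Calr, chr19:40213117-40213173, plus strand: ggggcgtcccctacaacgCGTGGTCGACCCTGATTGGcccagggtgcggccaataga
Canx, chr10:35158049-35158107, minus strand: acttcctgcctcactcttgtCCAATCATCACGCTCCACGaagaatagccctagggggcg
Herpud1, chr19:10614801-10614851, minus strand: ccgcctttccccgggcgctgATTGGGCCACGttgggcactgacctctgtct
Herpud1 is shown for the second element, and the others for the first. In Hspa5 the element lies from base -43 to base -25 before the start, and the 250 bases hold 4 CCAAT boxes and 1 CCACG. Hsp90b1 holds the element more than once, from -176 to -158 and from -72 to -54 on the other strand.

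The lumenal chaperones included the reference gene of the unfolded protein response, Hspa5, which encodes BiP. Hspa5 read 11.47 and 11.34 on fibronectin and 11.24 and 11.68 on uncoated dishes, so both fibronectin values lay between the controls. The log2 difference was -0.05 (SE 0.27) after quantile normalization and 0.25 on the deposited scale, limma's adjusted p being 0.968. Hsp90b1, which encodes the ER member of the HSP90 family, Grp94, lay lower on both fibronectin arrays, with 10.72 and 10.34 against 10.95 and 11.29 on the controls. It was 1.5-fold lower, a log2 difference of -0.58 (SE 0.29). Hyou1, a large chaperone that exchanges nucleotide on BiP, differed by only -0.09 (SE 0.30) in its brightest probe set.

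Cofactors of BiP and smaller stress-responsive lumenal proteins had higher values in several cases. Sdf2l1, a partner of BiP and of the co-chaperone Dnajb11, read 9.22 and 9.90 on fibronectin and 8.82 and 8.73 on the controls, 1.72-fold higher by 0.78 (SE 0.35) with limma's adjusted p = 0.762. Dnajc3, the co-chaperone also known as an inhibitor of the kinase PKR, read 9.33 and 8.07 on fibronectin and 7.85 and 7.88 on the controls. Its difference of 0.83 (SE 0.47) came mainly from fibronectin replicate 1 and was 0.20 without it. Creld2, a small protein known in mouse cells as a target of ER stress, read 8.21 and 8.35 on fibronectin and 7.93 and 7.63 on the controls, a difference of 0.50 (SE 0.36) without overlap. Dnajb11 was higher by 0.43 (SE 0.38) and Dnajb9, another BiP co-chaperone, differed by -0.40 (SE 0.47), both with overlapping groups. Manf, a secreted neurotrophic factor retained in the ER lumen, differed by -0.05 (SE 0.30), or by 0.07 on the deposited scale. Of the 9 lumenal chaperone genes 3 were higher and 2 lower without overlap, 55.6% together against 37.8% of all genes tested. The 2 lower were Hsp90b1 and Hyou1, the latter by only -0.09, or 0.02 on the deposited scale. None of the 9 passed limma's test, the lowest adjusted p being 0.762. Their direction depended on the scaling: 4 of 9 were positive with a median of -0.05 after quantile normalization, and 7 of 9 with a median of 0.25 on the deposited scale, where 0 were lower without overlap.

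The lectin chaperones and the glucosidase that prepares their substrates were the group in which no member had a positive difference. The group has only 3 genes, and of all 7101 genes tested 3449 had a negative difference. Calr, calreticulin, which binds newly glycosylated proteins and lumenal calcium, read 11 and 11.28 on fibronectin and 11.68 and 11.55 on the controls. It was 1.39-fold lower, -0.47 (SE 0.26) on the log2 scale or -0.15 on the deposited scale, without overlap on either. Ganab, the catalytic subunit of glucosidase II, which trims the glucose residues that these lectins recognise, read 7.84 and 7.05 on fibronectin and 8.62 and 8.10 on the controls. Its difference was -0.92 (SE 0.43), 1.89-fold lower, and -0.52 without fibronectin replicate 2. Canx, the membrane-bound lectin calnexin, read 11.12 and 9.44 on fibronectin and 11.31 and 10.19 on the controls in its brightest probe set. Here replicate 2 was the lower array in both groups, and the difference of -0.47 (SE 0.58) turned to 0.37 without fibronectin replicate 2. Limma's adjusted p was 0.771 for Calr, 0.762 for Ganab and 0.853 for Canx.

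The folding enzymes and the collagen chaperone included the lowest difference of the set. Pdia3, the disulfide isomerase ERp57 that works with calreticulin and calnexin, read 10.11 and 8.85 on fibronectin replicates 1 and 2, against 10.81 and 10.68 on control replicates 1 and 2. It was 2.4-fold lower, averaging 9.48 ± 0.89 (SD, n = 2) on fibronectin and 10.74 ± 0.09 (SD, n = 2) on the controls. The log2 difference was -1.26 (SE 0.42) (limma's adjusted p = 0.718). Without fibronectin replicate 1 it was -1.89, which passed limma's test with adjusted p = 0.0369, and it was -0.64 when fibronectin replicate 2 was left out. Leaving out either control gave an adjusted p of 1. P4hb, protein disulfide isomerase itself and also the beta subunit of the collagen prolyl 4-hydroxylase, read 11.38 and 11.45 on fibronectin and 12.23 and 11.99 on the controls. Its difference was -0.69 (SE 0.25), 1.62-fold lower, with limma's adjusted p = 0.726. Serpinh1, the collagen chaperone HSP47, read 11.42 and 11.31 on fibronectin and 12.14 and 11.85 on the controls, lower, with a difference of -0.63 (SE 0.26) with adjusted p = 0.754. On the deposited scale the P4hb difference was -0.27 and the Serpinh1 difference -0.23, and the Serpinh1 groups then overlapped. The isomerases Pdia4 and Pdia6 differed by -0.32 (SE 0.39) and 0.11 (SE 0.28), and Ppib, the prolyl isomerase cyclophilin B, by 0.11 (SE 0.29), all with overlap. The median of the 6 folding genes relative to their control means was -0.61 and -0.39 on fibronectin replicates 1 and 2. On the controls it was 0.00 and 0.00, values that mirror each other around 0 by construction and do not measure the controls' spread. The median difference of the 6 was -0.48, or -0.25 on the deposited scale and -0.30 with the arrays shifted to the same median.

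P4hb and Serpinh1 serve collagen synthesis, and most fibroblast markers had negative differences beside them. Of 22 fibroblast markers on the array, all tested, 15 had a negative difference, 8 of them without overlap. The other 7 had a positive one, 3 of them without overlap (Fbln2, S100a4 and Loxl1), and the list's median was -0.51. Positive differences made up 31.8% of the list against 51.4% of all genes tested, and 50% against 37.8% were apart in either direction. Of all genes, 17.2% lay lower and 20.6% higher without overlap. On the deposited scale 12 of the markers were negative and their median was -0.03, and those without overlap were not counted there. Their summed signal, on a log2 scale, was 15.49 and 15.94 on fibronectin and 15.83 and 16.24 on uncoated dishes, so that the higher fibronectin value lay between the controls. None of these markers was at the floor on all 4 arrays. Col1a1, the main fibrillar collagen chain, differed by -0.78 (SE 0.26), or by -0.05 on the deposited scale, and Dcn, decorin, by -1.57 (SE 0.41), or by -1.55 with the arrays shifted to the same median. The part of fibroblast content in the folding gene values was not tested. Cardiomyocyte markers numbered 19, of which 11 had a positive difference, or 16 on the deposited scale. Their summed log2 signal was 16.80 and 16.78 on fibronectin and 16.78 and 16.63 on uncoated dishes. Of 16 leukocyte markers on the array 8 were left out as dim, and 7 of the 8 tested had a negative difference on all 3 scalings. Neural and Schwann cell markers numbered 10 on the array, of which 6 were left out as dim. The 4 tested had a positive difference on all 3 scalings.

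**Figure D3:**
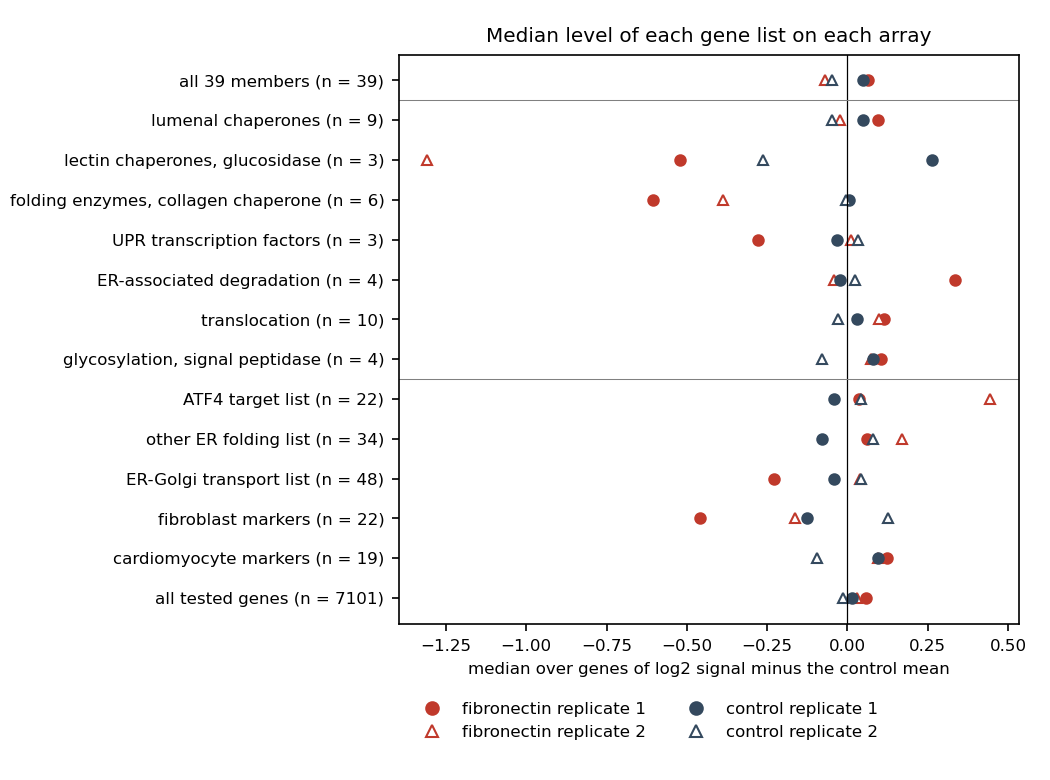
Median over the genes of each list of log2 signal minus the gene's control mean (x axis), on each of the 4 arrays, for the members, their role groups, related pathway lists, 2 marker lists and all genes tested (y axis). The folding enzymes lie at -0.61 and -0.39 on the fibronectin arrays, to the left of both controls, and the fibroblast markers at -0.46 and -0.16, against -0.13 and 0.13 on the controls. In every list the 2 control values mirror each other around 0 by construction, because each gene's control mean was subtracted.

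The transcription factors of the unfolded protein response did not move as one. Ddit3, encoding CHOP, a factor induced late in the response downstream of ATF4, read 9.25 and 9.19 on fibronectin and 8.47 and 8.54 on the controls. The groups stood apart and each spread little, averaging 9.22 ± 0.05 (SD, n = 2) on fibronectin and 8.50 ± 0.05 (SD, n = 2) on the controls. It was 1.64-fold higher, by 0.72 (SE 0.31), with adjusted p = 0.762 in limma's test, and leaving out 1 array gave differences from 0.68 to 0.75. Atf4 itself, whose product is controlled mainly at translation, was slightly lower at 10.34 and 10.44 on fibronectin and 10.61 and 10.63 on the controls, a difference of -0.23 (SE 0.26), or -0.05 on the deposited scale. Xbp1, whose transcript is spliced by IRE1, read 9.47 and 9.91 on fibronectin and 9.64 and 10.15 on the controls, with overlap and a difference of -0.21 (SE 0.33). Splicing of Xbp1 was not measured by the values used here.

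Genes of ER-associated degradation, the route that returns misfolded proteins to the cytosol for the proteasome, gave 1 member without overlap. That is 25% of this group, against 37.8% of all genes tested. Herpud1, a membrane protein of the degradation complex induced by ER stress, read 9.50 and 9.39 on fibronectin and 9.06 and 8.83 on the controls. It was 1.42-fold higher, by 0.50 (SE 0.31), with adjusted p = 0.772 in limma's test. Edem1, a lectin that sorts misfolded glycoproteins, differed by 0.28 (SE 0.51), and its controls alone spanned 8.41 and 7.25. Sel1l, the partner of the ubiquitin ligase Hrd1, differed by -0.39 (SE 0.49), and Vcp, the ATPase that extracts substrates from the membrane, by -0.06 (SE 0.33). The last 3 had overlapping groups.

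The genes measured by more than 1 probe set showed how far a value rested on the probes. For Canx the brightest probe set differed by -0.47 (SE 0.58), the next by -1.04 (SE 0.28) and the dimmest by -3.37 (SE 0.86). The second read 9.30 and 9.17 on fibronectin and 10.21 and 10.34 on the controls, without overlap, and the third had fibronectin replicate 1 at the floor of 4.55, below which values were not ordered. For Ssr3, in the same order, the differences were -0.29 (SE 0.44), 0.31 (SE 0.28) and -2.07 (SE 0.75), the second being higher and the third lower without overlap, so the direction of Ssr3 is not settled. For Pdia3 the dimmer probe set was also lower without overlap, at 6.82 and 6.84 on fibronectin and 7.02 and 7 on the controls, but by only -0.17 (SE 0.46). The dimmer Hyou1 probe set read 4.55 and 7.59 on fibronectin, where the first value was at the floor, and 6.25 and 7.22 on the controls. A second Serpinh1 probe set was left out as dim, with 4.68 and 5.02 on fibronectin and 4.55 and 4.61 on the controls.

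**Figure D4:**
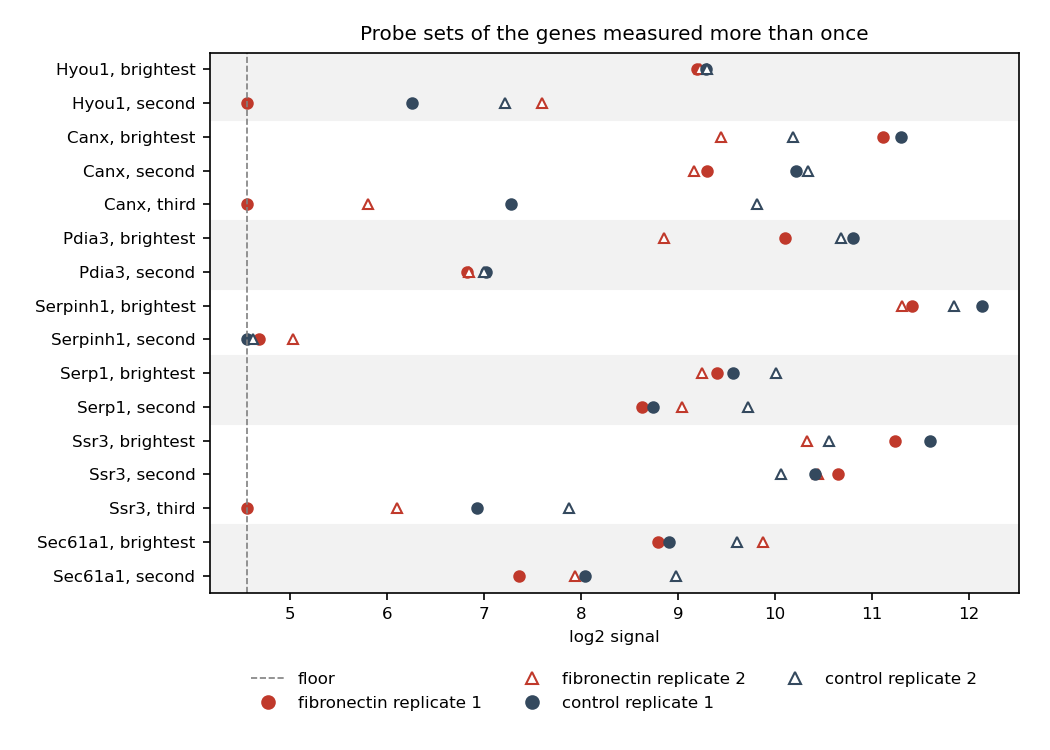
Log2 signal (x axis) on the 4 arrays for each probe set of the 7 members with several probe sets (y axis, ordered from brightest to dimmest within a gene), with the floor as a dashed line. The dimmest Canx, Hyou1 and Ssr3 probe sets each have fibronectin replicate 1 at the floor of 4.55, and the brightest Hyou1 probe set has all 4 values close together.

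Members with the same element did not share a sign on these arrays. None of their differences passed limma's test, and that of Hspa5 turned to 0.25 on the deposited scale. Of the 7 with the ER stress element, Dnajc3 and Creld2 were higher without overlap, by 0.83 and 0.50. Hsp90b1 and Calr were lower without overlap, with differences of -0.58 and -0.47. Creld2 and Calr stayed apart on all 3 scalings. Over all genes tested 20.6% lay higher and 17.2% lower without overlap. Hspa5, Xbp1 and Canx had overlapping groups, with differences of -0.05, -0.21 and -0.47. Of the 3 with the second element, Herpud1 was higher by 0.50, Dnajb11 by 0.43 with overlap, and Hyou1 differed by -0.09. The median difference was -0.21 for the 7, 0.43 for the 3 and -0.16 for the 25 members with neither element. Outside the members, 7 other tested genes held the ER stress element, and 4 of these had a positive difference.

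**Figure D5:**
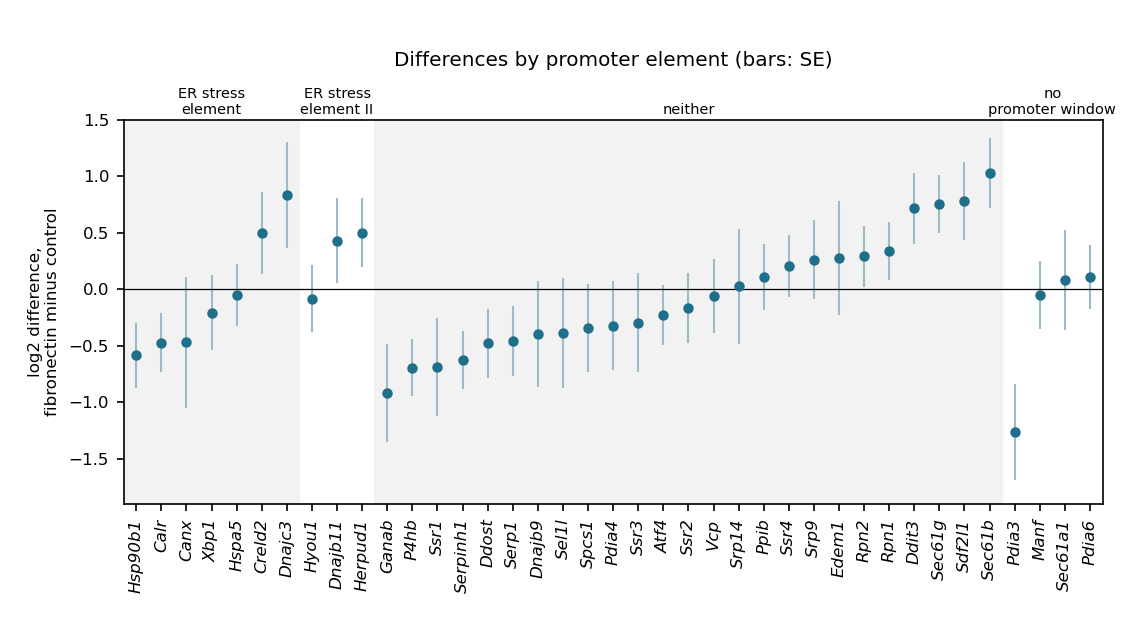
Log2 difference, fibronectin minus control, of each member (points, y axis), with limma's moderated SE as bars, sorted within classes of promoter element (x axis). The 7 members with the ER stress element run from -0.58 to 0.83, on both sides of 0.

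Further genes of the pathway were counted from lists of related genes. Of 22 tested targets of ATF4, such as amino acid synthesis and transport genes, 18 had a positive difference, 7 of them without overlap, and 3 were lower without overlap, 45.5% apart against 37.8% of all genes. Over all genes 51.4% had a positive difference, and 20.6% lay higher and 17.2% lower without overlap. The list's median relative to the control means was 0.04 on fibronectin replicate 1 and 0.44 on fibronectin replicate 2. Fibronectin replicate 1 thus lay near the control means. On the controls it was -0.04 and 0.04, values that mirror each other around 0 by construction and do not measure the controls' spread. Cebpb, a bZIP factor, was higher by 0.84 (SE 0.42), reading 7.54 and 7.77 on fibronectin and 6.89 and 6.75 on the controls. Vegfa, the endothelial growth factor, was lower, with a difference of -0.77 (SE 0.37). Among 17 other signalling genes of the response, 5 had a positive difference, with Creb3, a membrane-bound bZIP factor, at 0.94 (SE 0.39) and the kinase Mapk8 at -0.69 (SE 0.43). None of the genes in these lists passed limma's test, with lowest adjusted p of 0.762 and 0.758.

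Other folding, glycosylation and degradation genes also divided in direction. These lists are compared with all genes tested, of which 37.8% were apart in either direction, 20.6% higher and 17.2% lower. Of 34 other ER folding and redox genes, 23 had a positive difference, 6 without overlap, and 3 were lower without overlap, 26.5% together. Sil1, a nucleotide exchange factor of BiP, read 6.64 and 7.18 on fibronectin and 5.45 and 5.84 on the controls, a difference of 1.27 (SE 0.63). Fkbp2, an ER prolyl isomerase, read 9.33 and 9.75 on fibronectin and 8.91 and 8.97 on the controls, a difference of 0.60 (SE 0.32). Ppic, cyclophilin C, read 7.73 and 8.46 on fibronectin and 9.01 and 9.22 on the controls, a difference of -1.02 (SE 0.38), and Plod2, a collagen lysyl hydroxylase, differed by -0.67 (SE 0.31). Among 30 further import and glycosylation genes, 8 were higher and 6 lower without overlap, 46.7% together. Ost4, a very small subunit of the oligosaccharyltransferase, read 10.08 and 10.26 on fibronectin and 9.31 and 9.40 on the controls, higher by 0.82 (SE 0.28) in its brightest probe set. Averaged over all tested Ost4 probe sets the difference was 0.23. Sec62, which assists import after translation, was lower, with a difference of -0.75 (SE 0.37). Of 19 further degradation genes, 3 were higher and 4 lower without overlap, 36.8% together. Ube2j1, a ubiquitin-conjugating enzyme of the ER membrane, differed by 1.02 (SE 0.54) with overlap, and Fam8a1, a component of the Hrd1 complex, was lower, with a difference of -0.82 (SE 0.32). None of these genes passed limma's test, the lowest adjusted p being 0.718.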

How the data were processed

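Expression was measured in 4 samples of neonatal rat ventricular myocytes, 2 on fibronectin-coated and 2 on uncoated dishes. The values the authors deposited are linear signal intensities, 1 for each probe set on each array, and how these were scaled is not known here. Their trimmed means, without 2% of values at each end, differed by more than 10%, and the arrays were therefore quantile normalized, raised to a floor at the 20th percentile (23.4) and converted to log2. Of 15875 probe sets, 9 control probe sets and the 6347 dimmest were left out. The remaining 9519 were fitted in limma 3.58.1 (R 4.3.3) using lmFit and eBayes, the variance following the mean intensity, and tested two-sided with Benjamini-Hochberg adjustment over all of them at 0.05. Errors of differences are limma's moderated standard errors. An exact two-sided permutation test of 2 arrays against 2 cannot go below p = 0.333, and the number of arrays limits the precision. The procedure was tested on simulated data.

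Probe sets were named by GEO's platform annotation, which can be old. It gave 12783 of them 1 symbol, 312 several and 2771 none. Only those with 1 symbol were used. Values on each array are given for members with an unadjusted p under 0.05, for those without overlap that differed by at least 0.5, and for 10 fixed reference genes of the pathway. Some others were added after their values were seen. In each pathway list up to 3 genes per direction with the smallest p qualified, and some of these are named. The members and lists were chosen with earlier results of these data known. Lists are described by counts only. Alternatives covered scaling, filter, floor, offset, variance model, threshold, replicate block, leaving out each array, and averaging probe sets. Promoter sequences are from RefSeq, assembly GRCr8, matched by gene identifier.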

Additional observations from a re-analysis of the deposited data

How the results depend on the processing

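On the deposited scale the members' median difference was 0.07 and 4 members were lower without overlap, and with arrays shifted to the same median these were 0.02 and 6. The median over all genes tested was 0.09 on the deposited scale and 0.04 with the shifted arrays. The differences of Hspa5, Manf and Vcp turned positive on both, at 0.25 and 0.20, 0.07 and 0.02, and 0.10 and 0.06, as did that of Tnnt2 at 0.59 and 0.54; that of Hyou1 was 0.02 on the deposited scale. With probe sets averaged the median was -0.16 and Sec61a1 differed by -0.39. Leaving out 1 array, with the normalized values kept, gave from 0 to 337 probe sets past the threshold (0 without control replicate 2, 3 without fibronectin replicate 2, 5 without control replicate 1 and 337 without fibronectin replicate 1), from 0 to 1 members past it (Pdia3, without fibronectin replicate 1), from 15 to 18 members lower without overlap, where fewer arrays make overlap rarer, and a median from -0.07 to 0.06. From 13 to 15 members were higher without overlap in these fits, where all 4 arrays gave 11 higher and 11 lower. In these fits the spread of a single remaining array is taken from the other group, and the share of all genes without overlap was not counted. At an unadjusted p under 0.05, the members numbered 2 higher and 3 lower, but 2 and 0 on the deposited scale and 1 and 0 without the variance trend. Other settings gave more, with 4 and 2 without the filter, 4 and 4 with probe sets averaged and 5 and 6 with the replicate block. The counts over all probe sets moved too. Of 9519, 616 reached it in the main fit, 460 on the deposited scale, 572 without the variance trend and 1353 with the block. Without the filter 1059 of 15866 reached it, and with probe sets averaged 486 of 7101 genes. Differences whose sign depended on the array left out ran from -0.27 to 0.17 for Hspa5, -0.89 to 0.09 for Dnajb9, -0.24 to 0.14 for Manf, -1.31 to 0.37 for Canx, -0.66 to 0.01 for Pdia4, -0.12 to 0.34 for Pdia6, -0.18 to 0.39 for Ppib, -0.46 to 0.05 for Xbp1, -0.30 to 0.85 for Edem1, -0.89 to 0.11 for Sel1l, -0.43 to 0.31 for Vcp, -0.39 to 0.06 for Ssr2, -0.82 to 0.23 for Ssr3, -0.46 to 0.62 for Sec61a1, -0.64 to 0.69 for Srp14, -0.77 to 0.09 for Spcs1, -0.38 to 0.89 for Myh6 and -0.42 to 0.17 for Tnnt2. Of the 39 members, 22 kept their sign under every alternative run. The replicate block, for numbers the labels do not tie to a shared culture, gave 234 probe sets and 2 members past the threshold, Pdia3 (adjusted p = 0.00472) and Sec61b (adjusted p = 0.0205), with limma; their other alternatives reached 1. Lman1, Col1a1 and Dcn also passed under the block (adjusted p = 0.0323, 0.0317 and 0.000493). Deviations of equal numbers correlated at 0.271 across probe sets and 0.569 across the members; with 2 pairs this does not settle whether the numbers pair the arrays. The filters, floor, offset, variance models and threshold of 0.10 left 0 probe sets called. Why these values moved was otherwise not tested.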

Other observations

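Genes of transport between the ER and the Golgi, the step after folding, were counted the same way. Of 48 tested, 28 had a negative difference, 13 without overlap, and 5 were higher without overlap. Together these are 37.5% of the list, against 37.8% of all genes tested. By direction, 17.2% of all genes lay lower and 20.6% higher without overlap, and 51.4% had a positive difference, against 41.7% of the list. Sec24d, a cargo adaptor of COPII vesicles, read 8.37 and 8.58 on fibronectin and 9.32 and 9.43 on the controls, a difference of -0.90 (SE 0.31). Lman1, a cargo receptor that cycles between the ER and the Golgi, read 7.09 and 4.94 on fibronectin and 7.43 and 8.97 on the controls, a difference of -2.19 (SE 0.80). Without fibronectin replicate 2 the Lman1 difference was -1.11, and without fibronectin replicate 1 it was -3.26, which passed limma's test (adjusted p = 0.0392). Leaving out a control gave adjusted p of 0.591 and 1. Cope, a subunit of the COPI coat, read 9.40 and 10.35 on fibronectin and 8.99 and 9.07 on the controls, higher by 0.85 (SE 0.38). Sec16a, which organises ER exit sites, was higher by 0.77 (SE 0.36). With all 4 arrays limma's test called none of the list, with a lowest adjusted p of 0.718.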
